A study of Mus musculus with 15 samples.

Results

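The genes described are 39 genes of homologous recombination, the Fanconi pathway and the response to stalled replication forks, chosen by symbol among the 55359 genes of the expression table. The study sequenced poly-A RNA of 15 mouse samples, 3 in each of 5 groups. 46LCNEC_cell was an adherent line of large cell neuroendocrine carcinoma (LCNEC), sampled from 3 dishes, and 57SCLC_cell was a floating line of small cell lung carcinoma (SCLC), sampled from 3 flasks. 46LCNEC_allo and 57SCLC_allo were tumors grown under the skin of immunocompetent QKO mice from these lines, and Lung was normal lung of littermates of the graft hosts. Both lines came from QKO mice, in which several tumor suppressors, among them Rb1, Rbl1 and Trp53, are deleted: Rbl1 is lost in the germ line, Rb1 and Trp53 are floxed, and Cre was delivered by an adenovirus. Cre was driven by the CMV promoter for the LCNEC line and by the keratin 5 promoter for the SCLC line. Each tumor type is thus represented by 1 line, and tumor type, Cre promoter, growth form and line cannot be told apart. The genotype of the lung donors was not given separately, and ages were not given in the sources used here. Dishes, flasks and grafts of 1 line are not independent tumors, so p-values measure the spread between these samples.

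Homologous recombination repairs a broken chromosome by copying the sister chromatid. The ends are resected to single strands, RPA coats them, and BRCA1-BARD1, PALB2 and BRCA2 prepare them to invade the intact duplex, helped by the BCDX2 and CX3 complexes and by the RAD54 translocases. The Fanconi proteins sense cross-linked DNA: a core complex attaches ubiquitin to the FANCD2-FANCI pair, which brings in nucleases. ATR, with ATRIP, TOPBP1 and claspin, restrains stalled forks, ATM answers to breaks sensed by MRE11-RAD50-NBN, and polymerase theta (Polq) joins ends where recombination fails. Many of these genes are known to be transcribed mainly in S and G2 phases, and both carcinomas are known as fast-dividing tumors in which loss of RB and p53 is common.

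The counted reads ranged from 9480244 per sample, in a 57SCLC_allo tumor, to 44876572, in a 57SCLC_cell flask, with a median of 26502525. Values below are normalised counts, that is, reads divided by a size factor of the sample, and 3 reads correspond to between 1.56 and 7.18 normalised counts. Flask C of 57SCLC_cell stood apart from flasks A and B: the chi-square of their counts per degree of freedom was 144 for A against C, and 2.80 for A against B. The summed level of 8 alveolar and airway markers was 330615 to 429726 in Lung and at most 2571 in any other sample. Of 8 neuroendocrine markers, all 8 were called up over Lung in 57SCLC_cell, and in 46LCNEC_cell 2 were called up and 5 called down. The pair called up were Ncam1, at 28614 to 31510.0 normalised counts in 46LCNEC_cell, and Elavl3, while Chga was at most 6.62 there. In RNA, most of these markers thus went against the neuroendocrine label of that line. All 8 together summed to only 290 to 321 in Lung, so the calls down start from low values. The study based the label also on protein, with NCAM, SSTR2 and CGRP seen by immunofluorescence in its cell lines. Fanca was listed at 0 in all 15 samples and was not tested, which leaves 38 members. Its zeros were not read as absent expression, since an effect of the counting was not tested. Each of the other 38 had 8 reads or more in every sample.

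The sequence before the start of these genes was read first, from RefSeq promoters of the assembly GRCm38.p6, which is older than the GRCm39 used for the counts. Entries were found for 31 of the 39 members, with 34 promoters, and not for Rad51d, Rad54b, Xrcc2, Fancd2, Exo1, Rbbp8, Nbn and Rad50. Letters like those bound by E2F factors (TTTCCCGC, TTTGGCGC or TTTCGCGC, on either strand, within 250 bases before the start) were present in 4 of the 34 promoters, or 11.76%, and in 504 of all 32851 promoters, or 1.534%. The 4 genes were Bard1, Brca2, Topbp1 and Fancg, and the letters lay 209, 168, 129 and 52 bases before the start. CCAAT letters were present in 22 of the 34 promoters (64.71%) and in 33.85% of all promoters, the GC box GGGCGG in 64.71% and 32.74%, and TTTGAA, part of the CHR element of cell cycle genes, in 5.882% and 15.99%. These shares are descriptions of letters, not of bound sites, and the promoters of these genes were not compared with promoters of like base composition. The 4 promoters with E2F-like letters are shown, with those of Brca1 and Clspn, which had among the largest changes over Lung, and Fance, which was called in no comparison with Lung. Each is the 250 bases before the start, 5′ to 3′ along the gene, with E2F-like and CCAAT letters of either strand in capitals.
Bard1: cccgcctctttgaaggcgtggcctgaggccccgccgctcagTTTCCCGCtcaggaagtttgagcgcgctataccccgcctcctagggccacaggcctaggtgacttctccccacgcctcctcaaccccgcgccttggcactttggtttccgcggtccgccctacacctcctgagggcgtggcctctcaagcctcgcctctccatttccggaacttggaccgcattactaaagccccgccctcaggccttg
Brca2: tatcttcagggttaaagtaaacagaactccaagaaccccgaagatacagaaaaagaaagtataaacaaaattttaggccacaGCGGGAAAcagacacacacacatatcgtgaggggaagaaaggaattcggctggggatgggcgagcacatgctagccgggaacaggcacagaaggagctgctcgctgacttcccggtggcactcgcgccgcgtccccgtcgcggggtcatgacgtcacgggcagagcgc
Topbp1: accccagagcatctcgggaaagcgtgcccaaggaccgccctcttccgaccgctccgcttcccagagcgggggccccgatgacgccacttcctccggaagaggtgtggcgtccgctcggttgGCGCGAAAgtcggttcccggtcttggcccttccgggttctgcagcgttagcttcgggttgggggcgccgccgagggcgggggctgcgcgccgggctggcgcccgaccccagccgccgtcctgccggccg
Fancg: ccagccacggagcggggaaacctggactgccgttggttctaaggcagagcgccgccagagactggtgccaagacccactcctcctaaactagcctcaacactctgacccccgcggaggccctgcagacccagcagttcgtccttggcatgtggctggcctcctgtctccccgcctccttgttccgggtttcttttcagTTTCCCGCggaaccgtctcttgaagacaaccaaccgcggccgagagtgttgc
Brca1: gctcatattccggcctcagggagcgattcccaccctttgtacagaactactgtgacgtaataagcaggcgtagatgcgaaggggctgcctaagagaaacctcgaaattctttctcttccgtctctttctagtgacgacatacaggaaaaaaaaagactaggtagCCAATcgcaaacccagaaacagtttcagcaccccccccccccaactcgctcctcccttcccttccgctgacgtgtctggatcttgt
Clspn: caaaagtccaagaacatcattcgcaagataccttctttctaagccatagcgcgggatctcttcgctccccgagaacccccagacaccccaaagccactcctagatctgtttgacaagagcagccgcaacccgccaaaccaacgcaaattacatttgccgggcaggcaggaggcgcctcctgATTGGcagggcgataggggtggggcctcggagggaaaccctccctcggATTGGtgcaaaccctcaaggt
Fance: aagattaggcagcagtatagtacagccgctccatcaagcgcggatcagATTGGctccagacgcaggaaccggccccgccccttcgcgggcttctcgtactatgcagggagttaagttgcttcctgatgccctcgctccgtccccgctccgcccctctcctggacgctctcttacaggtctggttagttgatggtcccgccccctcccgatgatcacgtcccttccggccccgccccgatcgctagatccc
In GRCm38.p6 they lie at chr1:71102973-71103222 on the minus strand, chr5:150522371-150522620 on the plus strand, chr9:103305077-103305326 on the plus strand, chr4:43010302-43010551 on the minus strand, chr11:101551956-101552205 on the minus strand, chr4:126556730-126556979 on the plus strand and chr17:28313280-28313529 on the plus strand. The promoters of Brca1, Clspn and Fance hold CCAAT letters, although Fance was not called up over Lung, and none of these 3 holds the E2F-like letters searched.

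The first question was how the lines and their grafts differ from normal lung. Most members were higher in the carcinoma samples: a gene was called where limma, fitted on log2(normalised count + 1) of all genes tested, gave an adjusted p no higher than 0.01 and a change of 2-fold or more. In 46LCNEC_allo, 25 of the 38 members were called up and 1 down, where 13.4% of all 18033 genes tested were called up and 22.1% down. In 57SCLC_allo, 26 members were called up and 0 down, beside 18.9% and 26.9% of all genes. In 46LCNEC_cell, 27 were called up and 0 down, beside 20.6% and 35.0%, and in 57SCLC_cell, 28 were called up and 0 down, beside 21.1% and 32.7%. The median log2 fold change of the members was 1.68, 1.92, 2.22 and 2.36 in the same order, and that of all genes was −0.14, −0.09, −0.23 and −0.12. The comparisons share the same 3 Lung samples, so they are not independent of each other. In bulk tissue, fewer cells of a type and less RNA per cell cannot be told apart.

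**Figure D1:**
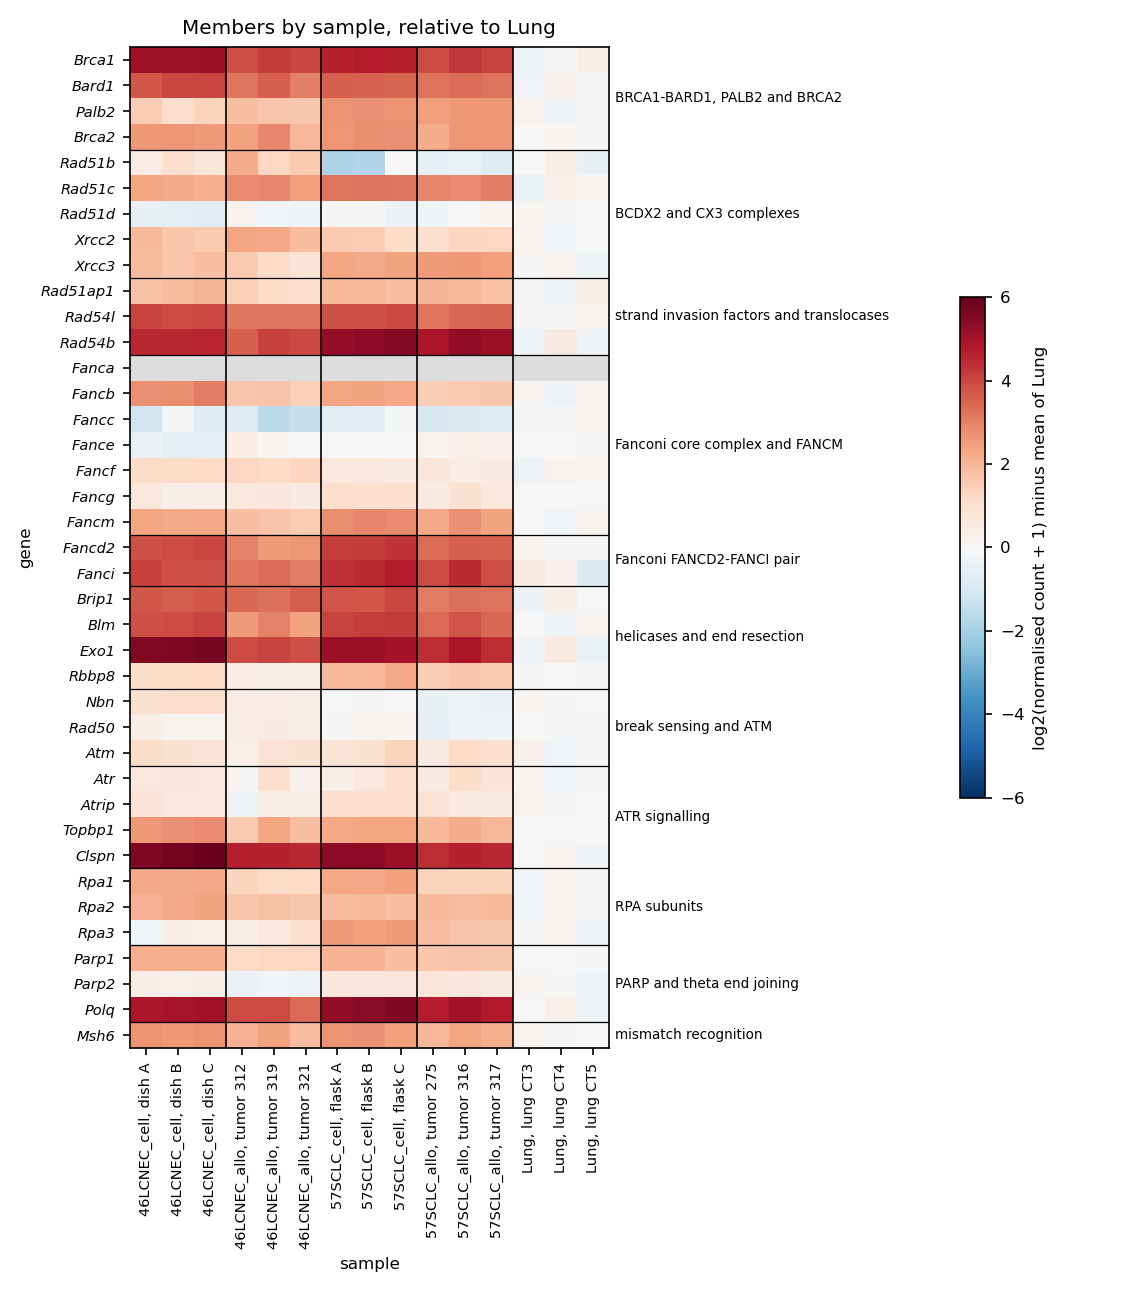
Heat map of the 39 members (rows, by role) in the 15 samples (columns). Colour is log2(normalised count + 1) minus the mean of the 3 Lung samples, from −6 to 6, and Fanca is grey because it was listed at 0. Brca1, Rad54b, Exo1, Clspn and Polq are darkest, Rad51d and Fance stay near the Lung level, and flask C of 57SCLC_cell differs from flasks A and B in Rad51b.

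By member, 23 of the 38 genes tested were called up in all 4 comparisons with Lung. The share over all genes was not computed. It can be no more than the 13.4% called up in 46LCNEC_allo, the lowest of the 4 shares. They were Brca1, Brca2, Bard1, Palb2, Rad51c, Xrcc2, Rad51ap1, Rad54l, Rad54b, Fancb, Fancm, Fancd2, Fanci, Brip1, Blm, Exo1, Topbp1, Clspn, Polq, Parp1, Rpa1, Rpa2 and Msh6. Xrcc3 and Rbbp8 were called up in 3, Fancf and Rpa3 in 2, and Rad51b, Fancg, Nbn and Atm in 1. Rad51d, Fance, Rad50, Atr, Atrip and Parp2 were called in none, and Fancc was called down in 1.

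**Figure D2:**
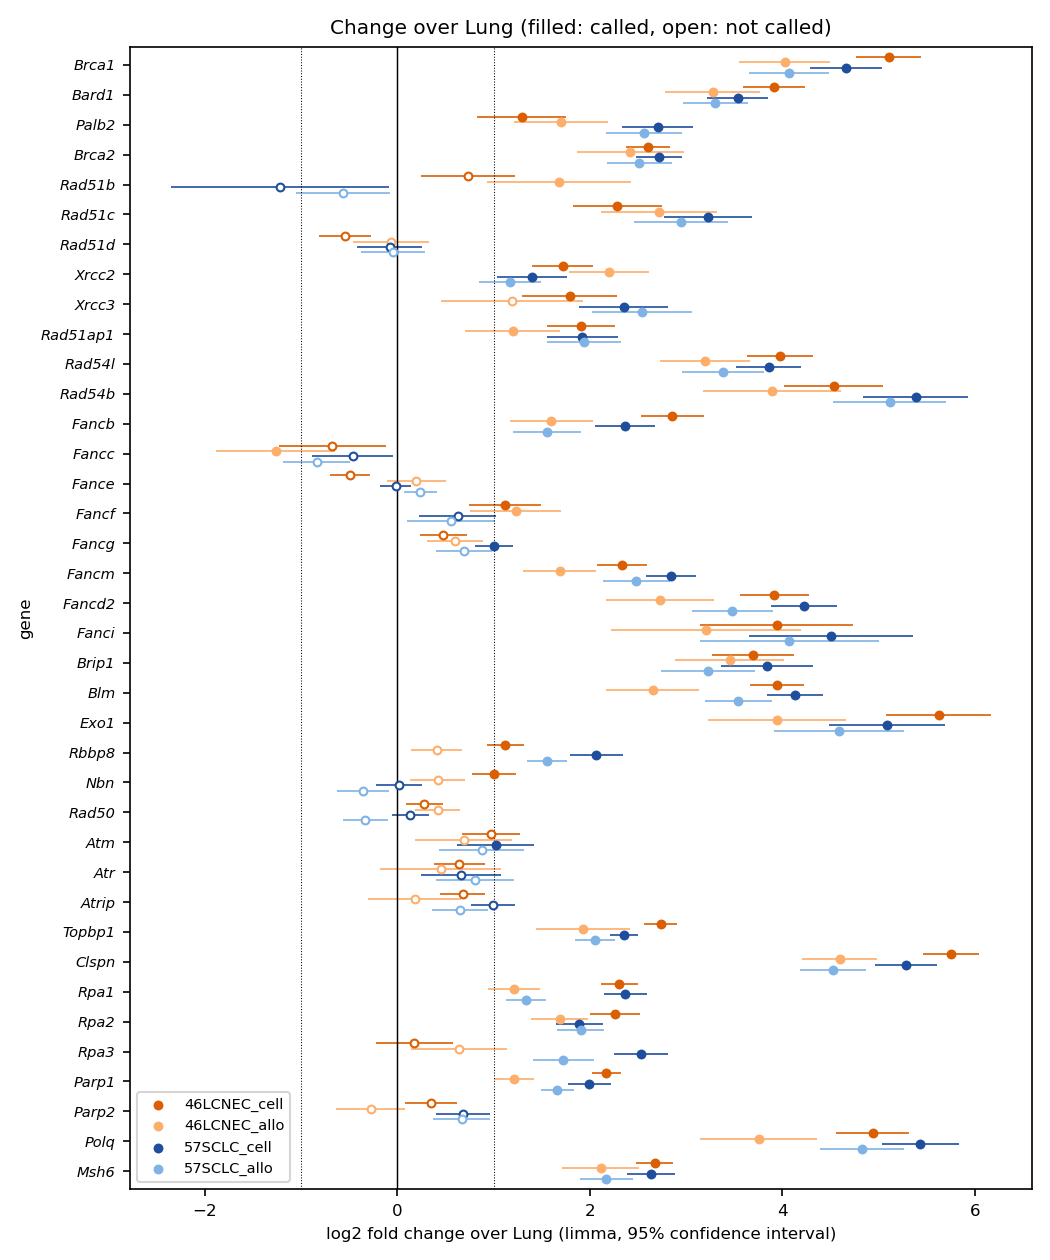
Log2 fold change over Lung of the 38 members tested (rows), for 46LCNEC_cell, 46LCNEC_allo, 57SCLC_cell and 57SCLC_allo (colours), with 95% confidence intervals from limma. Filled points are called, open points are not, and dotted lines mark a 2-fold change. Clspn in 46LCNEC_cell lies farthest to the right at 5.75, and Fancc in 46LCNEC_allo farthest to the left among called points at −1.26.

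All 4 genes of the BRCA1-BARD1, PALB2 and BRCA2 group were called up in each of the 4 comparisons. Brca1, a ubiquitin ligase subunit that promotes resection, had 77.0, 88.8 and 118 normalised counts in Lung, 3173, 3209 and 3334 in 46LCNEC_cell, 1391, 1699 and 1512 in 46LCNEC_allo, 2320.0, 2487 and 2315 in 57SCLC_cell and 1427, 1782 and 1539.9 in 57SCLC_allo. All carcinoma samples lay above all Lung samples, and its log2 fold change over Lung, given here and below with the standard error of the fit, was 5.10 ± 0.15 in 46LCNEC_cell (adjusted p = 4.11e-09) and 4.02 ± 0.20 in 46LCNEC_allo (adjusted p = 1.55e-05). Bard1, its partner, had 89.7, 119.7 and 94.8 normalised counts in Lung, 1341, 1616 and 1642 in 46LCNEC_cell, 951, 1211 and 824 in 46LCNEC_allo, 1232, 1172 and 1134 in 57SCLC_cell and 981, 1049 and 978 in 57SCLC_allo. The Bard1 change was 3.91 ± 0.14 in 46LCNEC_cell and 3.54 ± 0.13 in 57SCLC_cell, and its groups did not overlap Lung. Palb2, the bridge between BRCA1 and BRCA2, had the smallest change of the group, 1.29 ± 0.20 in 46LCNEC_cell, against 2.71 ± 0.16 in 57SCLC_cell. Brca2, which acts after PALB2 on the resected strands, had 188, 199 and 172 normalised counts in Lung, 1150.3, 1176 and 1093 in 46LCNEC_cell, 987, 1362 and 747 in 46LCNEC_allo, 1156, 1276 and 1266 in 57SCLC_cell and 883, 1192 and 1157 in 57SCLC_allo. Its change over Lung lay between 2.42 and 2.72 in the 4 comparisons, the narrowest range of the group. Brca1 lies at chr11:101379577-101442781 and Brca2 at chr5:150446057-150496080 (GRCm39, gene models of GENCODE release M39), and reads were counted over their exons.

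The 5 genes of the BCDX2 and CX3 complexes, which act on resected strands, did not move together. Rad51c and Xrcc2 were called up in all 4 comparisons, Xrcc3 in 3, Rad51b in 1 and Rad51d in none. Rad51c had 58.3, 97.7 and 84.3 normalised counts in Lung, 413, 385 and 359.8 in 46LCNEC_cell, 559, 585 and 434 in 46LCNEC_allo, 724, 761 and 736 in 57SCLC_cell and 603, 575 and 659 in 57SCLC_allo, and its largest change was 3.22 ± 0.20, in 57SCLC_cell. Rad51d had 523, 437 and 472 normalised counts in Lung, 354, 328 and 299 in 46LCNEC_cell, 551, 424 and 406 in 46LCNEC_allo, 493, 496 and 373 in 57SCLC_cell and 393, 469 and 537 in 57SCLC_allo. Its groups overlapped Lung except in 46LCNEC_cell, where all 3 dishes were lower and the change was −0.54 ± 0.12 (adjusted p = 0.00195), under the 2-fold threshold. Xrcc3 had 34.4, 38.9 and 26.9 normalised counts in Lung, 125, 108 and 118 in 46LCNEC_cell, 99.3, 76.8 and 59.7 in 46LCNEC_allo, 176, 163 and 178 in 57SCLC_cell and 199, 205 and 188 in 57SCLC_allo. Its change in 46LCNEC_allo, 1.196 ± 0.31, missed the threshold (adjusted p = 0.0137) although the groups did not overlap, and the gene was called there with DESeq2, with all 15 samples in 1 model and without tumor 321. In the annotation, 43.4% of the exon bases of Xrcc3 are shared with Klc1 on the opposite strand, and the strand setting of the counting is not given, so its level is uncertain.

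Rad51b had 885, 1155 and 634 normalised counts in Lung, 1187, 1757 and 1426 in 46LCNEC_cell, 4058, 2048 and 2571 in 46LCNEC_allo, 236, 258 and 844 in 57SCLC_cell and 572, 664 and 529 in 57SCLC_allo. It was highest in 46LCNEC_allo, where all 3 tumors lay above Lung and the change was 1.68 ± 0.31 (adjusted p = 0.00345), a call that was lost without lung CT3 or without lung CT5. In 57SCLC_cell, flasks A and B lay below every Lung sample and flask C within the Lung range, and the change over Lung was −1.22 ± 0.48 and was not called (adjusted p = 0.0474). Without flask C the change was −1.81 and was called. The gene is long, at chr12:79343212-79861464.

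Rad51ap1 and the RAD54 translocases, which aid invasion of the intact duplex, were called up in all 4 comparisons. Rad51ap1 rose least, by 1.2 ± 0.20 in 46LCNEC_allo on the log2 scale, a call lost without lung CT3 or without lung CT4, and by 1.94 ± 0.16 in 57SCLC_allo. Rad54b had 26.2, 47.9 and 28.1 normalised counts in Lung, 772, 777 and 792 in 46LCNEC_cell, 409, 575 and 529.9 in 46LCNEC_allo, 1317, 1376 and 1541 in 57SCLC_cell and 1019.8, 1339 and 1173 in 57SCLC_allo. It had the largest change of any member in 57SCLC_allo, 5.11 ± 0.25 (adjusted p = 9.64e-07), a ratio of means of 34.6. It shares 33.7% of its exon bases with Fsbp on the same strand, so reads of both genes may have been split or left uncounted. Rad54l had 33.6, 33.9 and 38.6 normalised counts in Lung, 600.5, 555 and 559 in 46LCNEC_cell, 338, 323 and 335 in 46LCNEC_allo, 511, 508 and 559 in 57SCLC_cell and 338, 395 and 404 in 57SCLC_allo, and 22.2% of its exon bases overlap Lrrc41.

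In the Fanconi core complex, which ubiquitinates FANCD2 and FANCI, 2 or 3 of the 6 members tested were called up in each comparison with Lung. Fancb, an X-linked core subunit, had 176, 136 and 179 normalised counts in Lung, 1086, 1122 and 1362 in 46LCNEC_cell, 511, 539 and 439 in 46LCNEC_allo, 836, 867 and 821 in 57SCLC_cell and 452, 489.8 and 499 in 57SCLC_allo. Every carcinoma sample was higher than Lung, and the changes were 2.86 ± 0.14 in 46LCNEC_cell and 1.56 ± 0.15 in 57SCLC_allo. Fancm, the translocase that anchors the complex on DNA, rose by 1.68 to 2.84 over Lung. Fance, which binds FANCD2, had 999, 973 and 1036 normalised counts in Lung, 787, 663 and 696 in 46LCNEC_cell, 1354, 1082 and 1033 in 46LCNEC_allo, 979, 1006 and 986 in 57SCLC_cell and 1139, 1219 and 1195 in 57SCLC_allo, and its change over Lung was between −0.49 and 0.24. Fancc, its partner in the complex, was the 1 member called down. Fancc had 256, 255 and 286 normalised counts in Lung, 116, 244 and 161 in 46LCNEC_cell, 155, 88.4 and 97.4 in 46LCNEC_allo, 172, 167 and 247 in 57SCLC_cell and 136, 149 and 161 in 57SCLC_allo. All carcinoma samples were under the lowest Lung sample, but the call in 46LCNEC_allo, −1.26 ± 0.26 (adjusted p = 0.00522), was lost without tumor 319, tumor 321 or any of the Lung samples, at log2 changes of −1.29 to −1.11. Fancf was called up in both groups of the LCNEC line, at 1.12 ± 0.16 and 1.23 ± 0.20, and in neither of the SCLC line, at 0.63 ± 0.17 and 0.56 ± 0.19, while its call in 46LCNEC_cell was lost without lung CT3, at 0.96. Of its exon bases, 28.4% overlap Gas2. Fancg was called up in 57SCLC_cell alone, at 1.01 ± 0.08, and fell under the 2-fold threshold with a pseudocount of 5, without flask A, at 0.99, and without lung CT3, at 0.999.

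Fancd2 and Fanci, the pair that the core complex marks with ubiquitin, were called up in all 4 comparisons. Fancd2 had 43.4, 36.9 and 35.1 normalised counts in Lung, 549.8, 590.5 and 641 in 46LCNEC_cell, 313, 227 and 244 in 46LCNEC_allo, 694, 711 and 799.8 in 57SCLC_cell and 397, 464 and 452 in 57SCLC_allo. The change was largest in 57SCLC_cell, 4.22 ± 0.15 (adjusted p = 1.11e-07), and smallest in 46LCNEC_allo, 2.73 ± 0.23 (adjusted p = 1.20e-04). Fanci had 26.9, 20.9 and 9.36 normalised counts in Lung, 321, 265 and 267 in 46LCNEC_cell, 166, 189 and 156 in 46LCNEC_allo, 374, 409 and 486 in 57SCLC_cell and 275, 409 and 266 in 57SCLC_allo. It was low in Lung, where 1 sample held 8 reads, and its standard error was the largest of the members called in all 4 comparisons, with a change of 4.51 ± 0.36 in 57SCLC_cell. Of its exon bases, 18.2% are shared with Polg on the opposite strand, and 15.7% of those of Fancd2 with other genes, so both levels are uncertain.

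Of the helicases and resection genes, Brip1, Blm and Exo1 were called up in all 4 comparisons and Rbbp8 in 3. Exo1, the nuclease that extends resected ends, had 31.4, 56.8 and 28.1 normalised counts in Lung, 1786, 1853 and 1964 in 46LCNEC_cell, 568, 623 and 559.8 in 46LCNEC_allo, 1347, 1325 and 1202 in 57SCLC_cell and 819, 1127 and 817 in 57SCLC_allo. In 46LCNEC_cell it was 48.2 times the Lung mean, with a log2 change of 5.62 ± 0.24 (adjusted p = 3.56e-08). Blm, the Bloom helicase, had 116, 96.7 and 126 normalised counts in Lung, 1636, 1718 and 1874 in 46LCNEC_cell, 674, 878 and 606 in 46LCNEC_allo, 1872, 2001 and 2086 in 57SCLC_cell and 1206, 1525 and 1248 in 57SCLC_allo, and its changes ran from 2.65 ± 0.20 in 46LCNEC_allo to 4.13 ± 0.12 in 57SCLC_cell. Rbbp8 encodes CtIP, which starts resection. Rbbp8 had 484, 529 and 551 normalised counts in Lung, 1128, 1103 and 1177 in 46LCNEC_cell, 721, 682 and 677 in 46LCNEC_allo, 2009.6, 2011 and 2583 in 57SCLC_cell and 1453, 1632 and 1529 in 57SCLC_allo. Its groups did not overlap Lung, yet in 46LCNEC_allo the change was 0.41 ± 0.11 (adjusted p = 0.0164). Brip1, a helicase that binds BRCA1, rose by 3.23 to 3.84.

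Of the 3 genes of break sensing, 1 was called up in each of the cell groups and 0 in the grafts. Rad50, a structural subunit of the break sensor, had 1177, 1078 and 1231 normalised counts in Lung, 1528, 1351 and 1358 in 46LCNEC_cell, 1568, 1623 and 1471 in 46LCNEC_allo, 1220.3, 1337 and 1273 in 57SCLC_cell and 821, 989.5 and 966 in 57SCLC_allo, and its change over Lung was between −0.33 and 0.42. Nbn, its partner, was called up in 46LCNEC_cell alone, at 1.00 ± 0.10 (adjusted p = 1.08e-05), and was under the threshold, at 0.95 to 0.99, without dish B, dish C, lung CT4 or lung CT5. Atm, the kinase they activate, was called up in 57SCLC_cell alone, at 1.02 ± 0.17, and was 0.87 and not called without flask C, and 0.94 and 0.99 without lung CT4 and without lung CT5. In 46LCNEC_cell Atm, at 0.97 ± 0.13, was just under the threshold, and was called with edgeR, DESeq2 or TMM scaling and without dish B, dish C or lung CT3, at 1.003 to 1.10. In 57SCLC_allo, at 0.88, it was called with library size scaling, at 1.08, and without tumor 275, at 1.05.

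Among the genes of ATR signalling, the kinase and its partner were called in no comparison with Lung, and the mediators were called in all 4. Atr had 309, 252 and 299.7 normalised counts in Lung, 448, 453 and 439.8 in 46LCNEC_cell, 302, 570.5 and 347 in 46LCNEC_allo, 367, 444 and 572 in 57SCLC_cell and 407, 613 and 508 in 57SCLC_allo, and its largest change over Lung was 0.81 ± 0.17. With library size scaling Atr was called up in 57SCLC_allo, at 1.02 (adjusted p = 7.18e-04, limma). Atrip lay at 0.99 ± 0.10 in 57SCLC_cell, just under the threshold, and was called there with edgeR, DESeq2, TMM or library size scaling and without flask C or lung CT3. Clspn encodes claspin, which presents CHK1 to ATR. Clspn had 52.3, 56.8 and 44.5 normalised counts in Lung, 2559, 2781 and 3049 in 46LCNEC_cell, 1298, 1263 and 1206 in 46LCNEC_allo, 2136, 2145 and 1804 in 57SCLC_cell and 1127, 1257 and 1204 in 57SCLC_allo. It had the largest change of all members in 46LCNEC_cell, 5.75 ± 0.13 (adjusted p = 1.06e-09), a ratio of means of 54.6, and in 46LCNEC_allo, 4.60 ± 0.16 (adjusted p = 6.25e-06). Topbp1, the activator of ATR, had 811, 839 and 808 normalised counts in Lung, 5045, 5506 and 5857 in 46LCNEC_cell, 2448, 4277 and 2906 in 46LCNEC_allo, 4124, 4251 and 4199 in 57SCLC_cell and 3203, 3824 and 3228 in 57SCLC_allo, with changes of 1.93 to 2.74. Clspn lies at chr4:126450728-126489576 and Topbp1 at chr9:103182356-103227631 (GRCm39).

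RPA coats single-stranded DNA as a complex of 3 subunits, and the subunits differed. Rpa1, the large subunit, had 1320.0, 1613 and 1548 normalised counts in Lung, 7338, 7204 and 7528 in 46LCNEC_cell, 3698, 3218 and 3447 in 46LCNEC_allo, 7419.8, 7480.3 and 8178 in 57SCLC_cell and 3820.5, 3758 and 3719 in 57SCLC_allo, and was called up in all 4 comparisons, as was Rpa2. Rpa3, the small subunit, had 286, 301 and 229 normalised counts in Lung, 242, 353 and 335 in 46LCNEC_cell, 342, 418 and 525 in 46LCNEC_allo, 1609.8, 1491 and 1612 in 57SCLC_cell and 977, 893 and 820.4 in 57SCLC_allo. Only the 57SCLC groups were called up over Lung, at 2.53 ± 0.12 and 1.72 ± 0.14, while 46LCNEC_cell overlapped Lung at 0.18 ± 0.18. For Rpa2 the changes were 2.26, 1.69, 1.89 and 1.91 in 46LCNEC_cell, 46LCNEC_allo, 57SCLC_cell and 57SCLC_allo.

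Polq, the polymerase of theta end joining, had 45.6, 56.8 and 37.5 normalised counts in Lung, 1334, 1461 and 1522 in 46LCNEC_cell, 714, 718 and 492 in 46LCNEC_allo, 1849, 1991 and 2253 in 57SCLC_cell and 1223, 1523 and 1269.8 in 57SCLC_allo. It was called up in all 4 comparisons and had the largest change of all members in 57SCLC_cell, 5.43 ± 0.17 (adjusted p = 6.84e-08). Parp1, the main sensor of strand breaks and a drug target in recombination-deficient tumors, had 1075, 1087 and 1002 normalised counts in Lung, 4809, 4599 and 4843 in 46LCNEC_cell, 2329.8, 2484 and 2511 in 46LCNEC_allo, 4424, 4538 and 3689 in 57SCLC_cell and 3375, 3467 and 3185 in 57SCLC_allo, with changes of 1.2 ± 0.09 to 2.17 ± 0.07. Parp2, the related polymerase, was called in none, at −0.28 to 0.69. Msh6, which recognises mismatched bases, had 840.1, 697 and 741 normalised counts in Lung, 4980.2, 4659.6 and 4885 in 46LCNEC_cell, 3199, 4066 and 2699 in 46LCNEC_allo, 4984, 5001 and 4194 in 57SCLC_cell and 3023, 3972 and 3320.4 in 57SCLC_allo. It was called up in all 4 comparisons, at 2.11 to 2.67.

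**Figure D3:**
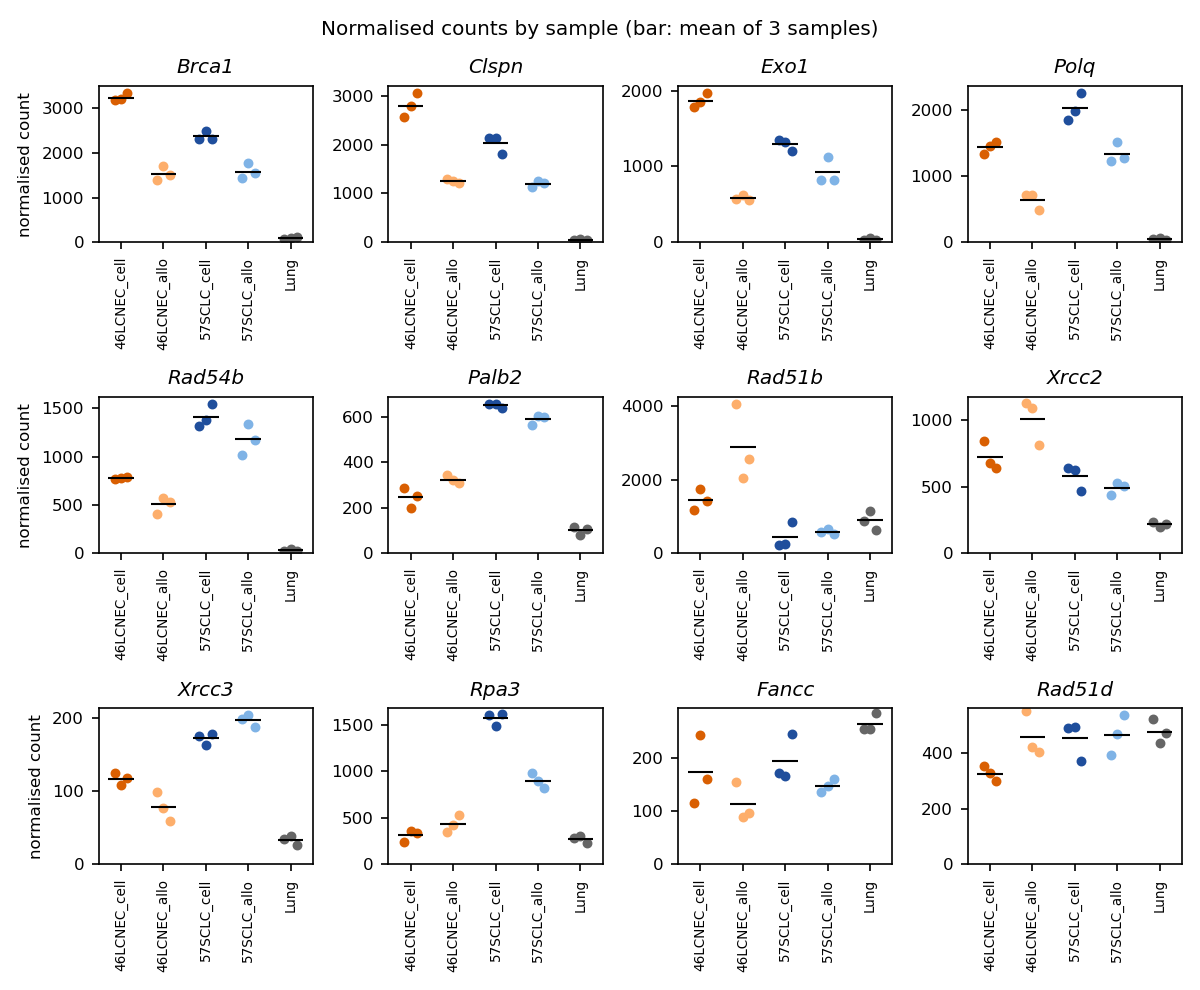
Normalised counts (vertical axes, linear from 0) of 12 members in the 3 samples of each group (points), with group means (bars). Brca1, Clspn, Exo1, Polq and Rad54b are near 0 in Lung beside the other groups, while the Lung points of Rad51d lie among those of the other groups. Rpa3 is at 1491 or more in the 57SCLC_cell flasks and at most 353 in the 46LCNEC_cell dishes.

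Other genes of the same processes, and of other processes, were read from lists beside the members. Of 40 other recombination and fork genes, 39 were tested, and 17, 19, 25 and 23 were called up over Lung in 46LCNEC_allo, 57SCLC_allo, 46LCNEC_cell and 57SCLC_cell, with 1, 0, 1 and 0 called down. Mms22l, which acts at stalled forks, was among the 3 with the smallest adjusted p in each of the LCNEC groups and in 57SCLC_cell, at 3.27 ± 0.12, 3.82 ± 0.10 and 3.54 ± 0.10. Chek1, the kinase under ATR, rose by 4.99 ± 0.16 in 57SCLC_allo and 5.44 ± 0.15 in 57SCLC_cell, and H2ax, the histone marked at breaks, by 2.73 ± 0.08 and 3.08 ± 0.09. Fan1, a nuclease of the Fanconi pathway, was the gene called down, at −1.15 ± 0.17 in 46LCNEC_allo and −1.03 ± 0.18 in 46LCNEC_cell.

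Non-homologous end joining, which rejoins ends without a template, had 1, 3, 5 and 3 of 13 genes tested called up and 2 called down in each comparison, in the same order of groups, where 13.4%, 18.9%, 20.6% and 21.1% of all genes were called up. Whether this share differs from that of the members was not tested. Paxx, a KU-binding factor, changed by −1.82 in 46LCNEC_allo and −2.03 in 57SCLC_allo, and Shld1, of the shieldin complex that limits resection, changed by −1.83 and −1.58. Mad2l2, another shieldin subunit, rose by 2.23 ± 0.15 in 57SCLC_allo and 2.92 ± 0.19 in 57SCLC_cell. Of 14 S phase and proliferation genes, all 13 tested were called up in each comparison, with medians of 3.33, 3.44, 4.02 and 3.95. Mki67, a proliferation marker, changed by 4.60 ± 0.08 in 46LCNEC_cell, and Mcm2, of the replicative helicase, by 4.46 ± 0.09. Their summed level was 4366 to 4952 in Lung and 37099 to 78387 in the other samples, so they moved with the members in every comparison with Lung, and their part in the members' changes was not tested. Wee1, Shld3 and Gins2 were listed at 0 in all samples and were not tested. Whether these zeros reflect absent expression or the counting was not tested either.

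The next question was whether the lines differ from each other. In culture few members were called: in 57SCLC_cell against 46LCNEC_cell, 2 members were called up and 1 down, where 23.9% of all 16920 genes were called up and 22.2% down. The median difference of the members was 0.09 on the log2 scale, and that of all genes 0.000278. The genes called were Rpa3, Palb2 and Rad51b. Rpa3 was 5.07 times as high in 57SCLC_cell, where the flasks had 1609.8, 1491 and 1612 and the dishes 242, 353 and 335, a log2 difference of 2.36 ± 0.15 (adjusted p = 2.08e-06). Palb2 had 655, 657 and 636 in the flasks and 285, 199.8 and 251 in the dishes, a difference of 1.42 ± 0.14 (adjusted p = 3.49e-05). For Rad51b the difference was −1.95 ± 0.45 (adjusted p = 0.00453), with the 95% interval from −3.001 to −0.90. All flasks were under all dishes, flask C stood closest to them, and the call was lost without dish A, B or C and without flask A or B, at differences of −2.09 to −1.62, and not without flask C. Other members differed by less than 2-fold without overlap: Nbn was lower in 57SCLC_cell, at −0.99 ± 0.08 (adjusted p = 1.44e-05), and Rbbp8 and Rad51c were higher, at 0.94 ± 0.11 and 0.94 ± 0.09. For Rad51ap1, Msh6 and Rpa1 the interval of the difference was −0.21 to 0.24, −0.24 to 0.17 and −0.10 to 0.23.

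In the grafts, 5 members were called up and 2 down in 57SCLC_allo against 46LCNEC_allo, beside 16.1% and 14.2% of all 17502 genes. The genes called up were Xrcc3, Rad54b, Rbbp8, Rpa3 and Polq, and those called down were Rad51b and Xrcc2. Rad51b had 572, 664 and 529 in 57SCLC_allo and 4058, 2048 and 2571 in 46LCNEC_allo, a difference of −2.24 ± 0.25 (adjusted p = 3.94e-04). Xrcc2, of the same group, had 438, 525 and 506 and 1124, 1090.4 and 809, a difference of −1.03 ± 0.17 (adjusted p = 0.00203). Xrcc3 went the other way, with 199, 205 and 188 and 99.3, 76.8 and 59.7, a difference of 1.35 ± 0.26 (adjusted p = 0.0042).

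Rad54b had 1019.8, 1339 and 1173 in 57SCLC_allo and 409, 575 and 529.9 in 46LCNEC_allo, a difference of 1.23 ± 0.17 (adjusted p = 0.00112). Rbbp8 had 1453, 1632 and 1529 and 721, 682 and 677, a difference of 1.15 ± 0.10 (adjusted p = 1.29e-04). For Rpa3 and Polq the differences were 1.08 ± 0.18 and 1.08 ± 0.18, with no overlap between the groups. With 1 tumor left out at a time, 2 to 6 members were called up: the calls of Rpa3, Polq and Xrcc3 were each lost when any single 57SCLC_allo tumor was left out, that of Rpa3 also without tumor 312 and that of Polq without tumor 321, while that of Xrcc2 was lost without tumor 312, 319, 275 or 317. Scaled by library size instead, 11 members were called up and 1 down, with the median of all genes moved by 0.27 on the log2 scale. The grafts also differ in markers of other cell types. The summed level of 7 fibroblast markers was 432572 to 854682 in 46LCNEC_allo and 40542 to 62734 in 57SCLC_allo. All 7 were called lower in 57SCLC_allo. In culture that sum was 82234 to 92731 in 46LCNEC_cell and 25.0 to 32.2 in 57SCLC_cell. In the LCNEC grafts the sum thus does not stand for host cells alone. The sum of 8 leukocyte markers was 22019 to 48747 in 46LCNEC_allo and 8974 to 14868 in 57SCLC_allo. Among the 8, Itgam was listed at 0 in all samples and adds nothing to the sum. The part of host cells in these differences was not tested.

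**Figure D4:**
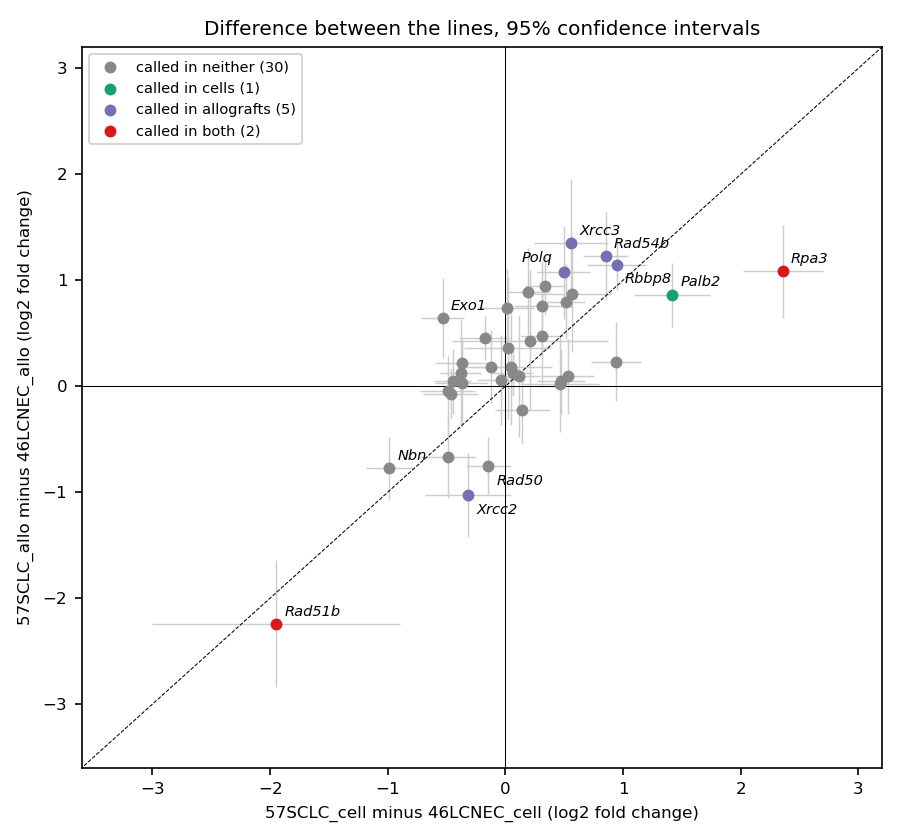
Log2 difference between the lines, 57SCLC minus 46LCNEC, in cells (horizontal axis) and in allografts (vertical axis) for the 38 members tested (points), with 95% confidence intervals from limma and the line of equality dashed. Rad51b lies at −1.95 and −2.24 and Rpa3 at 2.36 and 1.08, the 2 members called in both, while 30 members were called in neither.

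The grafts were then compared with the cells that formed them. In 46LCNEC_allo against 46LCNEC_cell, 0 members were called up and 8 down, where 14.4% of all 16375 genes were called up and 8.45% down. The median change of the members was −0.59, and that of all genes −0.000694. Members called down were Exo1, Blm, Fancb, Fancd2, Polq, Clspn, Rpa1 and Brca1, from 7 of the 11 role groups. Exo1 had 1786, 1853 and 1964 in the dishes and 568, 623 and 559.8 in the tumors, a change of −1.68 ± 0.10 (adjusted p = 2.88e-05). Blm had 1636, 1718 and 1874 and 674, 878 and 606, a change of −1.29 ± 0.15 (adjusted p = 5.25e-04). Fancb had 1086, 1122 and 1362 and 511, 539 and 439, a change of −1.26 ± 0.14 (adjusted p = 3.87e-04). For all 8 members the tumors lay below the dishes without overlap. The other 5 changed by −1.19 (Fancd2), −1.18 (Polq), −1.15 (Clspn), −1.09 (Rpa1) and −1.08 (Brca1). Of the 30 members not called, 20 had a negative and 10 a positive value, the highest 0.95 ± 0.26 for Rad51b.

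In 57SCLC_allo against 57SCLC_cell, 0 members were called up and 1 down, beside 14.4% and 2.29% of all 17078 genes. The member was Rpa1, with 7419.8, 7480.3 and 8178 in the flasks and 3820.5, 3758 and 3719 in the tumors, a change of −1.03 ± 0.08 (adjusted p = 1.80e-05). In the LCNEC line the change was −1.09 ± 0.09, and the 95% interval of the difference between the lines was −0.18 to 0.30. Without flask C the change of Rpa1 was −0.98 and was not called, and Rad51b was then called up, at 1.25. The median of the members was −0.33, with 31 of 38 values negative, and that of all genes was 0.00436.

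Markers of host cell types moved with these changes, although the fibroblast sum was already 82234 to 92731 in 46LCNEC_cell. All fibroblast and endothelial markers tested, and all leukocyte markers tested, were called up in the grafts over the cells of both lines. The leukocyte sum rose from 332 to 384 in 46LCNEC_cell to 22019 to 48747 in 46LCNEC_allo, and from 249 to 275 in 57SCLC_cell to 8974 to 14868 in 57SCLC_allo. The endothelial sum of 6 markers was 6245 to 10432 in 46LCNEC_allo and 2959 to 4036 in 57SCLC_allo, against at most 455 in cells. The S phase and proliferation list also moved: 6 of 13 genes were called down in 46LCNEC_allo, with a median of −0.87, and 1 of 13 in 57SCLC_allo, with a median of −0.32. Mcm7 and Mcm4, of the replicative helicase, changed by −1.07 ± 0.12 and −1.01 ± 0.12 in 46LCNEC_allo, and Pcna, the replication clamp, by −1.12 ± 0.13. The summed level of the 39 members was 54448 to 57295 in 46LCNEC_cell and 34260 to 39120 in 46LCNEC_allo, and 54620.0 to 55961 in 57SCLC_cell and 38861 to 44167 in 57SCLC_allo. The parts of host cells and of proliferation in the changes of the members were not tested.

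**Figure D5:**
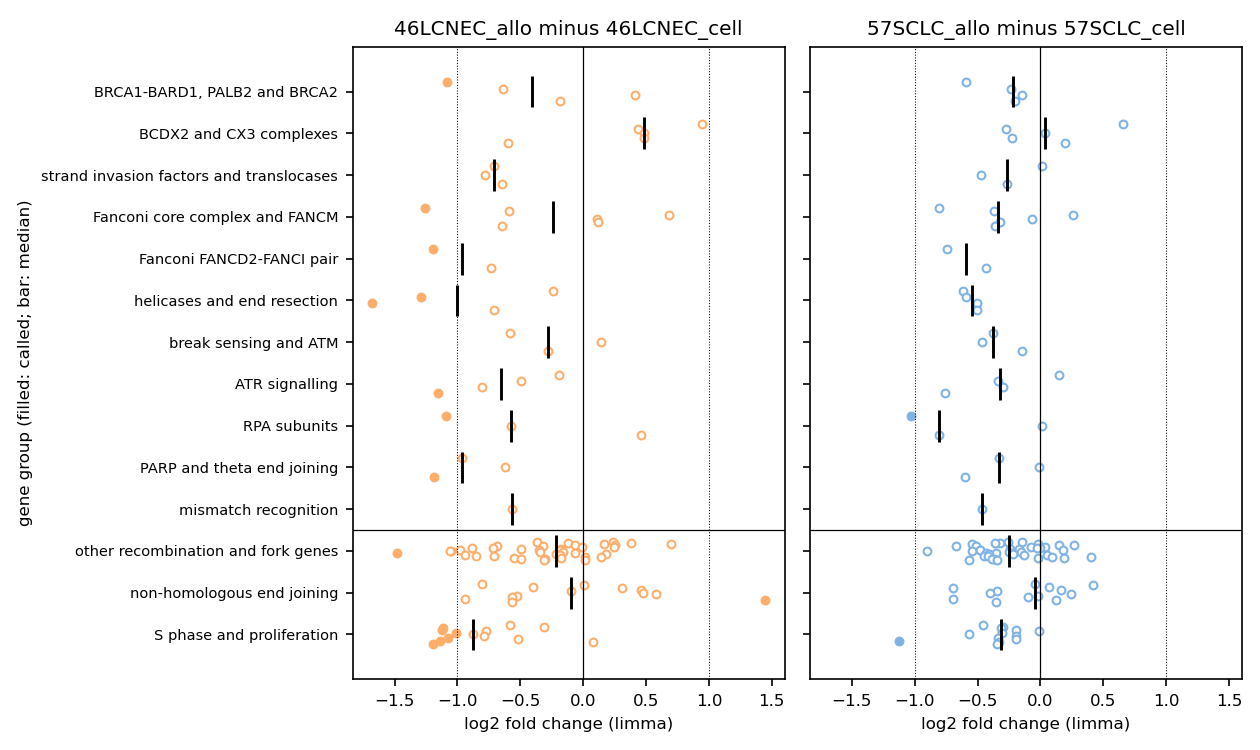
Log2 fold change of the grafts over their cells (horizontal axes) for 46LCNEC (left) and 57SCLC (right), by role group of the members above the line and by 3 other gene lists below it. Each point is a gene tested, filled where called, bars are medians, and dotted lines mark a 2-fold change. All role groups except the BCDX2 and CX3 complexes have medians under 0 in both panels, and the S phase list has a median of −0.87 on the left and −0.32 on the right.

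Whether the lines differed in the same way in grafts as in cells was tested with an interaction term over 12 samples, the difference of 57SCLC minus 46LCNEC in grafts less that in cells. Of the 38 members, 1 was called up and 1 down, beside 10.8% and 6.78% of all 18440 genes. For Exo1 the line difference was −0.53 ± 0.08 in cells and 0.64 ± 0.16 in grafts, and the interaction was 1.17 ± 0.18 (adjusted p = 3.35e-04). For Rpa3 the difference was 2.36 ± 0.15 in cells and 1.08 ± 0.18 in grafts, and the interaction was −1.27 ± 0.24 (adjusted p = 0.00175). Rad51c, Rad51ap1, Rad50, Parp1, Parp2 and Rpa2 had an adjusted p under 0.01 with an interaction under 2-fold, from −0.71 for Rad51c to 0.72 for Rad51ap1. In the S phase and proliferation list, 12 of 13 interactions were positive, as for Exo1, with a median of 0.59 beside 0.10 over all genes and 0 called, and the part of proliferation in these interactions was not tested.

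Levels between genes were compared per kilobase of exon, in normalised counts per kb. The length joins the exons of all transcripts in GENCODE release M39, while reads were counted on release M27. In 57SCLC_cell the highest mean level was that of Rpa3, 1375 ± 60.4 (SD, n = 3), then Rpa1, 973 ± 53.3, and Msh6, 964 ± 94.0, and the last pair did not differ beyond their spread. In 46LCNEC_cell the order was Msh6, 988 ± 33.6, Rpa1, 930.0 ± 20.6, and Parp1, 652 ± 18.1, with Rpa3 at 271 ± 52.2. In Lung the highest was Fance, 314 ± 9.84, and then Rpa3, 238 ± 33.0, while Rad54b, 2.63 ± 0.929, and Fanci, 3.27 ± 1.53, were among the lowest. Fancc and Atr were the lowest tested in each of the 4 carcinoma groups, at 10.9 ± 2.51 and 18.4 ± 4.12 in 57SCLC_cell. They also had the longest joined exons of the members, 17855 and 25108 bases, so their rank depends on that length. Lung held the lowest group mean for Clspn, at 51.2 ± 6.26 normalised counts, and not for Rad51b, at 891 ± 260.3, where 57SCLC_cell was lowest at 446 ± 345 and overlapped Lung.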

How the data were processed

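RNA was kept in RNAlater, extracted with miRNeasy, selected for poly-A and sequenced in pairs on a NovaSeq. The authors aligned reads to GRCm39 with Rbowtie2 and counted them per gene with featureCounts and GENCODE release M27. The strand setting and the treatment of reads with several positions were not given in the sources used here. The deposited signal values are counts divided by DESeq2 size factors. In each sample, 100% of the values above 0 were whole multiples of 1 step (tolerance 0.01), so reads were recovered, and depth is their sum. Of the 55359 genes, 25369 were at 0 in every sample.

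Genes with a value of 10 or more in at least 3 of the samples fitted were tested with limma 3.58.1 (trend) on log2(value + 1), with Benjamini-Hochberg adjustment over all genes tested and a threshold of 0.01 and 2-fold. This scale understates changes of low genes. Each of 8 pairwise comparisons used its 6 samples, and the interaction 12. Alternatives were edgeR 4.0.16 and DESeq2 1.42.0 on recovered reads, TMM and library size scaling, pseudocounts of 5 and 0.1, no filter, a threshold of 0.05, all 15 samples in 1 model, each replicate left out (filter in 2 samples) and, between the lines in culture, the letters A, B and C as a block. The fits were tested on simulated data. Exon lengths, overlaps and positions came from GENCODE release M39. Overlap with other genes was not stated above for every gene named. It also covered 15.3% of the exon bases of Brca2, 10.1% of Atrip, 24.6% of H2ax and 35.5% of Paxx, among others. Their levels are uncertain in the same way. Intervals and floors cover counting or sample error only.

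The 39 members and the other lists were chosen with earlier results of these data known. Values per sample were given for up to 3 called members with the largest change in each direction of each comparison, members called against the majority, members called in the interaction and the extremes of each role group. From other lists, at most 3 genes per comparison were named, those with the smallest adjusted p.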

Additional observations from a re-analysis of the deposited data

Results flagged for a closer look

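Of the 38 members tested, 2 were called for the interaction term over 12 samples (limma), 1 up and 1 down. Of all 18440 genes, 10.8% were called up and 6.78% down. The counts of members lie below these shares, and the 2 genes are given for their own values. Exo1, the resection nuclease, had an interaction of 1.17 on the log2 scale: 57SCLC was lower than 46LCNEC in cells, with no overlap, and higher in grafts, with no overlap. Rpa3, the small RPA subunit, had an interaction of −1.27: 57SCLC was higher in both settings, by less in grafts. Leukocyte, endothelial and fibroblast markers were also higher in grafts than in cells. The S phase and proliferation genes had a median interaction of 0.59, with 12 of 13 positive, the sign of Exo1, beside 0.10 over all genes. The part of host cells and of proliferation in the 2 interactions was not tested.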

How the results depend on the processing

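Of the recomputed counts of members called, 261 stayed within 1.5 times the reported count and 23 did not. With edgeR, DESeq2, TMM scaling, other pseudocounts, no filter and all 15 samples in 1 model, all counts did so, and no member reversed direction under any alternative after being called. Scaled by library size, which moved the median of all genes by 0.24 (cells) and 0.27 (grafts) on the log2 scale, 5 members were called up between the lines in culture, and 11 up and 1 down in grafts. At an adjusted p of 0.05, 1 member was called down in 57SCLC_cell over Lung. The dishes and flasks share the letters A, B and C. Deviations with the same letter correlated at 0.055, −0.064 and 0.0049 over 19626 genes, and those with different letters at −0.073 to 0.073. No shared deviation by letter was seen, although 3 samples per line cannot exclude a pairing. The replicate block gave 2 members up and 1 down. With each replicate left out in turn, members called down numbered 0 to 1 in 46LCNEC_allo and in 57SCLC_cell over Lung, 0 to 1 between the lines in culture, and 1 to 2 in grafts, where 2 to 6 were called up. Grafts over cells gave 0 to 1 up in both lines and 0 to 1 down in 57SCLC. Without flask C, Rad51b was called down over Lung (−1.81) and up in 57SCLC_allo over cells (1.25), and Rpa1 was not called there (−0.98). Without tumor 319, Rad51b was called up in 46LCNEC_allo over cells (1.17). The cause of each change was not tested. With 3 samples a group, differences under 2-fold were not called by rule.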

Other observations

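Of the 39 other recombination and fork genes tested, 5 were called up and 3 down in 57SCLC_cell over 46LCNEC_cell, where 23.9% of all genes were called up and 22.2% down. In the grafts 3 were called up and 1 down, where 16.1% and 14.2% of all genes were. These counts lie below the shares over all genes, and the genes that follow are given for their own values. Dna2, a nuclease and helicase of long-range resection, had 2508, 2517 and 2339 normalised counts in the flasks and 910.1, 879 and 973 in the dishes, a difference of 1.41 ± 0.07 in cells and 2.11 ± 0.16 in grafts. Ube2t, the ubiquitin-conjugating enzyme of the Fanconi pathway, differed by 1.72 ± 0.09 and 1.82 ± 0.25, again higher in 57SCLC. Rad9a, of the checkpoint clamp, had 1807, 1824 and 2000.4 in the dishes, 592, 646 and 793 in 46LCNEC_allo, 724, 771 and 655 in the flasks and 591, 529 and 558 in 57SCLC_allo. It was lower in 57SCLC_cell than in 46LCNEC_cell, at −1.39 ± 0.09, and its interaction with setting was 1.12 ± 0.17 (adjusted p = 3.29e-04, limma).

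Of the 13 end-joining genes tested, 3 were called up and 1 down in 57SCLC_cell over 46LCNEC_cell, and 1 up and 0 down in the grafts, which is near or below the same shares over all genes. Mad2l2, of shieldin and of translesion polymerase zeta, was higher in 57SCLC in both settings, at 1.66 ± 0.16 in cells and 1.91 ± 0.13 in grafts. Xrcc5, which encodes KU80, was lower in the 57SCLC flasks, at −1.14 ± 0.12. Lig4, the ligase of end joining, differed by 1.55 ± 0.17 in cells, and its interaction was −1.004 ± 0.23 (adjusted p = 0.00556, limma).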
